A study of Mus musculus with 768 samples.

Results

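The D-type cyclins (Ccnd1, Ccnd2 and Ccnd3), their kinase partners Cdk4 and Cdk6, and the Myc family (Myc, Mycn and Mycl) were followed through the growth of mouse cochlear organoids. These 8 genes were taken by symbol from the 52636 genes of the deposited tables, not by any measured value, and all 8 passed the filter on low counts in every fit. Among them, Cdk4 and Mycn were higher on culture day 7 than on day 1. Per exon length, Mycn held the largest mean share of Myc family reads on every day. That share was 55.4% on day 1 and 76.1% on day 7, with overlapping cultures. Ccnd1 was the main D-type cyclin in every culture and, averaged over the days, was higher in cycling than in non-cycling cells, as was Cdk4. Ccnd2 and Myc were carried by a minority of cells.

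D-type cyclins are made when growth factors act on a resting cell. They bind Cdk4 or Cdk6, and the complex phosphorylates the retinoblastoma protein, which releases E2F transcription factors and lets the cell enter S phase. Myc proteins pair with Max on E-box DNA and drive genes of ribosome production, metabolism and the cell cycle. In the mouse cochlea, the sensory epithelium leaves the cell cycle before birth and its cells scarcely divide afterwards.

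The cells came from the greater epithelial ridge, the epithelium on the inner side of the hair cells in the cochlear duct, of mice on postnatal day 2 of the strain Fgfr3-CreERT2/Ai14-tdTomato/Sox2-GFP. They were enriched by flow cytometry and grown in a medium that all groups shared, which held CHIR99021, an inhibitor of GSK3, the TGFβ receptor inhibitor 616452, valproic acid and a phosphorylated ascorbic acid beside the growth factors IGF1, EGF and FGF2. By the labels the groups differ in culture time alone, and no uncultured cells were analysed here. Cells were picked by hand into plates and sequenced 1 by 1 with SmartSeq2, which copies whole transcripts into cDNA and tags no molecules, so reads include PCR copies. There were 3 cultures of day 1, 3 of day 3 and 5 of day 7. Limits on reads, genes and mitochondrial reads removed 10, 27 and 20 cells of these days and kept 92.6% of all cells. A culture is the set of cells with 1 day and 1 replicate number. The labels do not say that these sets came from separate animals, so p-values measure the spread between the sets, which may be technical.

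Summed over its kept cells, a culture held 26391412 to 72483565 reads on genes. Epcam and Cdh1, which mark epithelium, were read in all 11 cultures, while of 3 endothelium genes Pecam1 and Kdr were at 0 in all of them and Cdh5 was at most 0.452 CPM. The summed level of 9 greater epithelial ridge genes ran from 9939 to 13990 CPM, which are reads scaled to a common library size, on day 1 and from 2554 to 5813 CPM on day 7. Tectb made up most of the day 1 sum, and all its day 7 values lay below all its day 1 values. Gjb2 went the other way, with every day 7 culture above every day 1 culture, and Gjb6 was higher on day 7 in the mean. The fall of the sum is thus not a fall of each ridge gene. The summed level of 5 epithelium genes ran from 3680 to 5318 CPM on day 1. It was 3459 to 5550 CPM on day 3 and 1826 to 3130 CPM on day 7. Cultures of day 7 were also higher in the sum of 4 glia and Schwann cell genes, at 77.9 to 93.5 CPM against 53.8 to 72.4 on day 1 and 43.8 to 62.6 on day 3. Sox10, which cochlear epithelium also expresses, made up most of that sum. The summed level of 7 mesenchyme genes stayed at or below 43.8 CPM, that of 4 blood and immune genes at or below 7.19 CPM and that of 4 melanocyte and intermediate cell genes at or below 9.06 CPM. For 4 neuron genes the sum was 15.9 to 102.3 CPM on day 1, 13.3 to 33.3 on day 3 and 10.2 to 18.8 on day 7. For 8 supporting cell genes it was 650.9 to 950.5, 601.5 to 940.8 and 460 to 1062 CPM in the same order. Hair cell genes summed to 29.1 to 72.1 CPM on day 1, 48.7 to 321.1 on day 3 and 21.2 to 39.02 on day 7, and Pou4f3 was at 0 in 6 cultures. The share of cycling cells, defined below, ran from 15.3% to 23.7% on day 1, from 54.2% to 66.7% on day 3 and from 25.3% to 88.4% on day 7. Day 7 culture 5 had the lowest share of its day and culture 3 the highest. The part of these shifts in the results was not tested, except where values within cell classes are given.

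Ccnd1, the cyclin that growth factor signalling raises in many epithelia, lies at chr7:144929931-144939925 on the minus strand of GRCm38. Its level was 723.2, 403.2 and 539.7 CPM in the day 1 cultures, in order of replicate number. It was 1071, 880 and 968 CPM on day 3, and 966, 1050, 1420, 1243 and 501.6 CPM on day 7. All day 3 cultures were above all day 1 cultures, while on day 7 culture 5 fell among the day 1 values and the other 4 cultures lay above them.

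The fitted difference of Ccnd1 between day 3 and day 1 was 0.81 on the log2 scale (SE 0.32, edgeR adjusted p = 0.475). From day 1 to day 7 it was 0.90 (SE 0.29, adjusted p = 0.0834), and without day 7 culture 5 it was 1.07 with an adjusted p of 0.0132. Between day 7 and day 3 the difference was 0.09 (SE 0.28, adjusted p = 0.958). The cells came in 2 deposited files, which may reflect batches, and 4 of the 5 day 7 cultures are in the first. In the second file, the 1 day 7 culture had 501.6 CPM against 880.2 and 967.5 CPM in the day 3 cultures and 403.2 and 539.7 CPM in the day 1 cultures. In the first file the 4 day 7 cultures, at 966 to 1420 CPM, stood above the 723.2 CPM of its day 1 culture.

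Ccnd2, at chr6:127125162-127152193 on the minus strand, was uneven between cultures. It was at 55.7, 17.3 and 37.0 CPM on day 1 and at 118.1, 48.8 and 110.3 CPM on day 3. On day 7 no read fell on it in culture 1, which allows up to 0.0907 CPM at 3 reads, and the other 4 cultures had 0.231, 20.6, 4.18 and 13.3 CPM. All day 7 cultures were below all day 3 cultures, and culture 3 of day 7 was above culture 2 of day 1. The fitted difference between day 7 and day 3 was -3.58 on the log2 scale (SE 1.13, adjusted p = 0.199), and limma on the mean CPM per cell gave an adjusted p of 0.0453. The difference between day 7 and day 1 was -2.25 (SE 1.10, adjusted p = 0.235), and it passed the threshold with limma on mean CPM per cell (adjusted p = 0.0462).

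Ccnd3, the third of the D-type cyclins, spans chr17:47505051-47599691 on the plus strand. Its 3 day 1 cultures had 171.7, 133.6 and 136.3 CPM, and the day 3 cultures had 199.7, 116.2 and 149.9 CPM. The 5 day 7 cultures, with 48.2, 75.4, 105.3, 93.1 and 94.1 CPM, lay below every culture of days 1 and 3. The fitted difference was -0.82 between day 7 and day 1 (SE 0.25, adjusted p = 0.0638) and -0.90 between day 7 and day 3 (SE 0.25, adjusted p = 0.127). Neither passed with edgeR. With the DESeq2 Wald test both did, with adjusted p-values of 0.00819 and 0.0212. RLE scaling (adjusted p = 0.0451), cells thinned to equal depth (0.0312) and leaving out day 3 culture 1 (0.0493) also took the difference from day 1 past the threshold.

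Cdk4, a catalytic partner of D-type cyclins and the more abundant transcript of the 2 kinases here, lies at chr10:127063534-127067920 on the plus strand. Its level was 335.01, 444.4 and 471.2 CPM on day 1, 491.2, 555.9 and 583.4 CPM on day 3, and 646.5, 676.5, 587.6, 653.2 and 653.8 CPM on day 7. The 3 days did not overlap, and the cultures of each day lay above those of the day before. Cdk4 rose by 0.63 on the log2 scale from day 1 to day 7 (SE 0.15, adjusted p = 0.0290). The steps from day 1 to day 3 (0.38, SE 0.17, adjusted p = 0.516) and from day 3 to day 7 (0.24, SE 0.15, adjusted p = 0.608) did not pass on their own.

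The call for Cdk4 is close to its threshold. Leaving out day 1 culture 1, 2 or 3, or day 7 culture 2, 3 or 4, ended it, with adjusted p-values of 0.168, 0.0681, 0.0508, 0.0535, 0.0509 and 0.0777 in that order, and the fold stayed between 0.43 and 0.73 whichever culture was left out. The call was also lost without the filter on low counts (adjusted p = 0.0824) and with stricter limits on cells (0.0521). Within the first file, day 7 cultures at 587.6 to 676.5 CPM stood above the day 1 culture at 335.01 CPM. Within the second, day 7 culture 5 at 653.8 CPM stood above both day 1 cultures at 444.4 and 471.2 CPM. With the file as a covariate the difference was 0.74 (adjusted p = 0.0131), and in the second file alone it was 0.52 (adjusted p = 0.345). Tspan31, on the opposite strand, shares exon bases with Cdk4, and the strand setting of the counting is not given in the sources used here. Tspan31 itself differed by -0.25 between day 7 and day 1 (SE 0.15, adjusted p = 0.353).

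The stretch before the RefSeq start of Cdk4 (chr10:127063285-127063533, GRCm38.p6, plus strand) is shown because Cdk4 was called and E-boxes are the letters that Myc and Max bind. The capitals mark CACGTG, which reads the same on both strands and occurs 4 times.

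Cdk4 upstream stretch: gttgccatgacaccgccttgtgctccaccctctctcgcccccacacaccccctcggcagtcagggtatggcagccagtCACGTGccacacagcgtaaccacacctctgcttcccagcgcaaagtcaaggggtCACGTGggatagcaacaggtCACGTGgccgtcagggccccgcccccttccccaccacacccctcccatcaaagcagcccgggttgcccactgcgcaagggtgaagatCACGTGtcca

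In RefSeq promoter windows of 300 bases, from 250 before to 50 after a start, CACGTG occurs in 7.15% of 32851 windows. Windows were found for 5 of the 8 genes (Ccnd3, Cdk4, Cdk6, Mycn and Mycl), 6 windows in all, since Ccnd3 has 2. The window of Cdk6 holds CACGTG 1 time, and those of Ccnd3, Mycn and Mycl hold none of these letters. A match in the letters is not a bound site.

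Cdk6, which shares the D-type cyclins with Cdk4, lies at chr5:3341485-3531008 on the plus strand. It had 50.8, 58.2 and 67.5 CPM on day 1, 69.5, 85.4 and 39.8 CPM on day 3, and 54.7, 51.01, 73.7, 71.4 and 73.9 CPM on day 7. The values of the 3 days overlapped. Its fitted differences were 0.14 for day 3 and day 7 against day 1 (SE 0.27 and 0.25) and 0.00 for day 7 against day 3 (SE 0.24), with adjusted p-values of 0.937, 0.781 and 1.00.

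Mycn, a Myc gene best known from embryonic tissue, lies at chr12:12936093-12941914 on the minus strand. It was at 39.4, 22.1 and 48.7 CPM on day 1 and at 67.1, 50.2 and 64.95 CPM on day 3. On day 7 it was at 111.7, 100.2, 72.5, 49.4 and 85.4 CPM. The day 3 and the day 7 cultures each lay above all day 1 cultures, although culture 4 of day 7 exceeded the highest of them by little. Mycn rose by 1.19 on the log2 scale from day 1 to day 7 (SE 0.30, adjusted p = 0.0350). The difference between day 3 and day 1 was 0.73 (SE 0.33, adjusted p = 0.532), and that between day 7 and day 3 was 0.46 (SE 0.30, adjusted p = 0.627).

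As for Cdk4, the Mycn call rests on few cultures. It was lost without day 1 culture 1 or 2 (adjusted p = 0.114 and 0.118), without day 3 culture 1 or 3 (0.0524 and 0.0528) and without day 7 culture 1, 2 or 3 (0.0592, 0.0648 and 0.0610), with folds of 0.93 to 1.45 over all 11 omissions. In the first file the day 7 cultures, at 49.4 to 111.7 CPM, were above the day 1 culture at 39.4 CPM, and in the second, day 7 culture 5 at 85.4 CPM was above 22.1 and 48.7 CPM. The file covariate gave 1.14 (adjusted p = 0.0684), and the second file alone gave 1.28 (adjusted p = 0.260).

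A stretch upstream of the RefSeq start of Mycn (chr12:12941915-12942086, GRCm38.p6, minus strand, written in the direction of the gene) is shown because Mycn was the other gene called. It stops where the annotated gene begins, short of the RefSeq start. The capitals mark TTTNNCGC, letters like those that E2F factors bind, searched on both strands. There are 3 matches, 2 of which overlap each other on opposite strands and form the longer run.

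Mycn upstream stretch: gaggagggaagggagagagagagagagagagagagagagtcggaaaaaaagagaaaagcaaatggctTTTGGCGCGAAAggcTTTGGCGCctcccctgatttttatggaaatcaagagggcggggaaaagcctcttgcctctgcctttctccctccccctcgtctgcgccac

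TTTNNCGC occurs in 5.17% of the RefSeq windows. Among the 6 windows of these genes, that of Cdk6 also has 1 match. The third motif, that of TCF/LEF factors of the Wnt pathway (CTTTGAT or CTTTGTT, both strands), occurs in 9.33% of all windows and 1 time in that of Cdk4. It was searched because the medium held CHIR99021, which activates that pathway.

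Myc, the founding gene of the family, lies at chr15:61985391-61990374 on the plus strand. It had 28.4, 20.8 and 5.75 CPM on day 1, 35.2, 26.2 and 5.63 CPM on day 3, and 12.5, 1.19, 16.04, 7.57 and 3.65 CPM on day 7. Replicates of a day differed more than the days did, and the 3 days overlapped. The fitted difference was -1.16 between day 7 and day 1 (SE 0.75, adjusted p = 0.381) and -1.45 between day 7 and day 3 (SE 0.75, adjusted p = 0.495).

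Mycl, the third gene of the family, at chr4:122995652-123002485 on the plus strand and expressed in few cells, had 9.70, 11.05 and 7.57 CPM on day 1, 12.3, 9.54 and 15.5 CPM on day 3, and 23.4, 31.5, 13.6, 21.3 and 6.34 CPM on day 7. The first 4 day 7 cultures were above all day 1 cultures, and culture 5 was below all of them. The fitted difference between day 7 and day 1 was 1.02 (SE 0.44, adjusted p = 0.182). Without day 7 culture 5 it was 1.25 (adjusted p = 0.0474), and in the second file alone, where that culture is the 1 culture of day 7, it was -0.55.

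**Figure D1:**
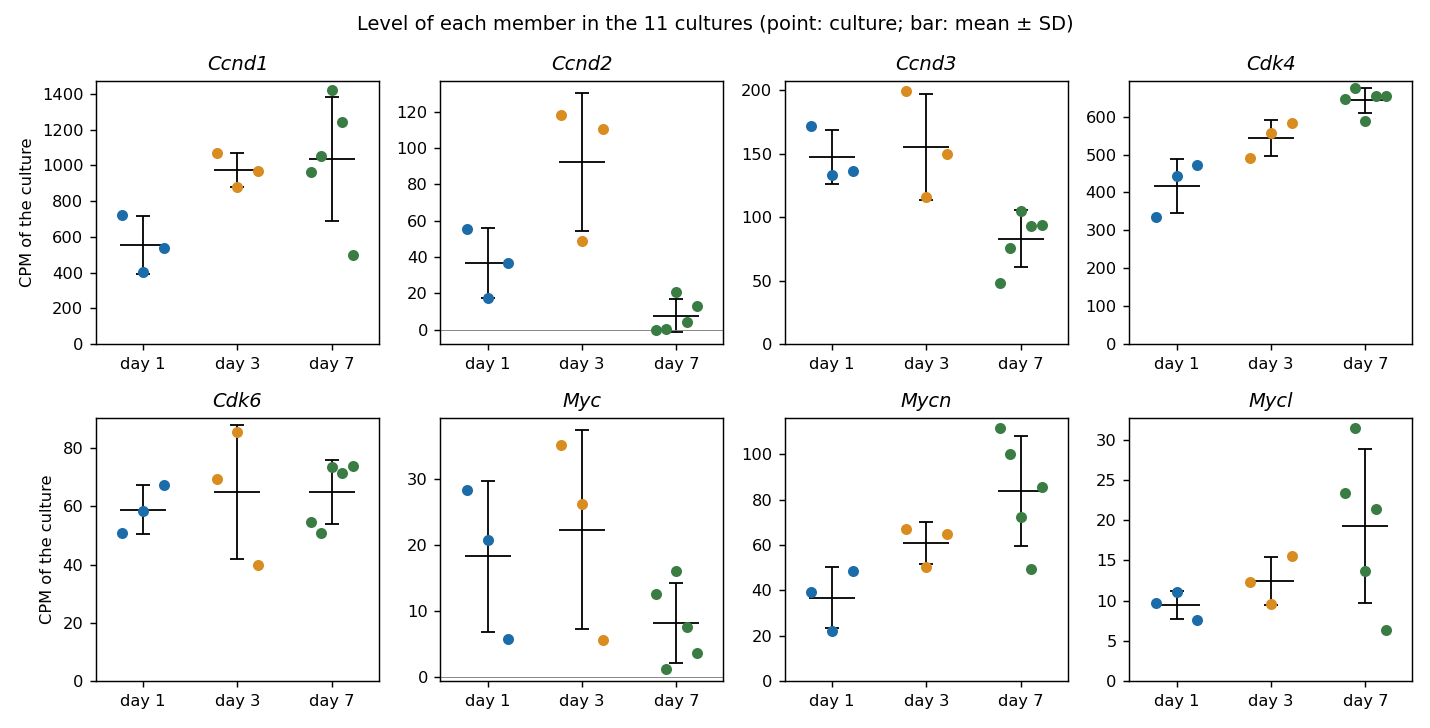
CPM of the 8 genes (y axis, linear, from 0) in the cultures of days 1, 3 and 7 (x axis). Each point is a culture and the bar shows mean ± SD. Cdk4 climbs from 335.01 to 471.2 CPM on day 1 to 587.6 to 676.5 CPM on day 7 with no overlap of days, and the day 7 points of Ccnd3 lie below those of both earlier days.

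Read over the 8 genes, 2 were called between day 7 and day 1, where 7.11% of the 17466 tested genes were. No gene of the 8 was called between day 3 and day 1 (0.0115% of all tested genes) or between day 7 and day 3 (0.968%). An unadjusted p under 0.05 was reached by 1617 of all genes between day 3 and day 1 and by 2066 between day 7 and day 3. With DESeq2, 4 of the 8 were called between day 7 and day 1 (13.3% of all tested genes) and Ccnd3 alone between day 7 and day 3 (3.69%), while limma on mean CPM per cell called 3 (10.3%) and Ccnd2 alone (0.91%). Groups without overlap were found for 3 of the 8 between day 7 and day 1 (Ccnd3 lower, Cdk4 and Mycn higher, 17.8% of all tested genes), 3 between day 3 and day 1 (Ccnd1, Cdk4 and Mycn higher, 18%) and 3 between day 7 and day 3 (Ccnd2 and Ccnd3 lower, Cdk4 higher, 8.13%). The comparisons share cultures and are not independent. Leaving out 1 culture gave 0 to 4 called genes of the 8 between day 7 and day 1. The calls over all tested genes varied as well, and were fewest without day 1 culture 1 and most without day 7 culture 5. Those omissions gave 0 and 4 of the 8.

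**Figure D2:**
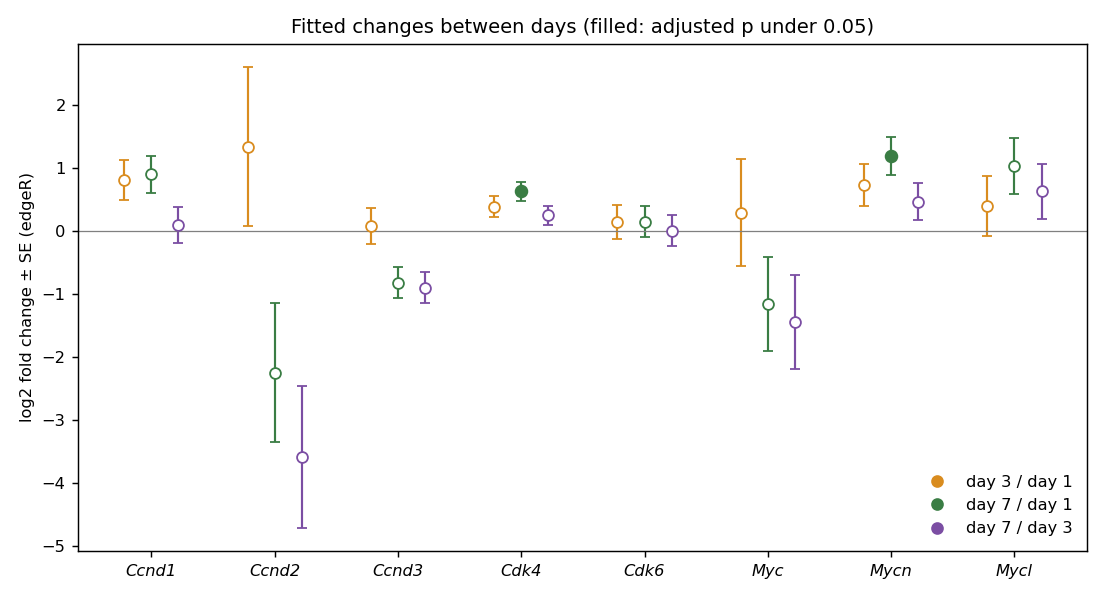
Fitted log2 fold change ± SE (y axis) of each gene (x axis) for the 3 pairs of days. Filled points passed an edgeR adjusted p of 0.05, which only Cdk4 (0.63) and Mycn (1.19) did, both for day 7 against day 1, and the widest bars are those of Ccnd2 and Myc.

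To compare genes with each other, reads were divided by merged exon length and scaled so that every culture had the same total, as in TPM. On day 1, Cdk4 (292.9 ± 37.4, SD, n = 3) and Ccnd1 (273.98 ± 95.7) stood highest and did not differ beyond their spread. Ccnd3 (38.8 ± 8.04), Mycn (25.8 ± 9.82) and Myc (15.7 ± 10.4) followed, each within the spread of its neighbour or close to it, and then Cdk6 (9.62 ± 1.09), Ccnd2 (9.13 ± 5.26) and Mycl (5.37 ± 0.987). By day 7 the order was Ccnd1 (536.5 ± 187.2, n = 5), Cdk4 (481.6 ± 36.7), Mycn (61.2 ± 15.96), Ccnd3 (23.1 ± 6.54), Mycl (11.6 ± 5.70), Cdk6 (11.3 ± 2.22), Myc (7.32 ± 5.35) and Ccnd2 (1.97 ± 2.28). Mycn thus stood above Ccnd3 on day 7 and below it on day 1 in the mean.

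Within the D-type cyclins, Ccnd1 made up 84.9% ± 1.299 of the per-length reads on day 1 (SD, n = 3), 88.4% ± 2.32 on day 3 (n = 3) and 94.99% ± 2.99 on day 7 (n = 5). Ccnd3 held 12.4% ± 2.09, 7.47% ± 1.12 and 4.603% ± 2.53 in the same order. The share of Ccnd2 was 2.68% ± 0.791, then 4.10% ± 1.37, then 0.411% ± 0.518. The Ccnd1 share of every day 7 culture, from 89.8% to 97.4%, was above every day 1 share, and it overlapped the day 3 range of 86.6% to 91.03%. Between the kinases, Cdk4 held 96.8% ± 0.225, 97.3% ± 1.02 and 97.7% ± 0.461 of the pair.

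The Myc family was mixed on day 1. Of its per-length reads, Mycn held 55.4% ± 20.7 on day 1, then 62.9% ± 12.1 on day 3, then 76.1% ± 9.40 on day 7, while Myc held 32.7% ± 18.6, 26.4% ± 15.9 and 9.43% ± 6.87. The day 1 shares of Mycn were 48.3%, 39.2% and 78.7%, so culture 3 of day 1 resembled the day 7 cultures, which ran from 65.01% to 89.9%. Mycl held 11.9% ± 3.56, 10.7% ± 3.72 and 14.5% ± 7.08. These shares were computed after the data had been seen and carry no test.

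**Figure D3:**
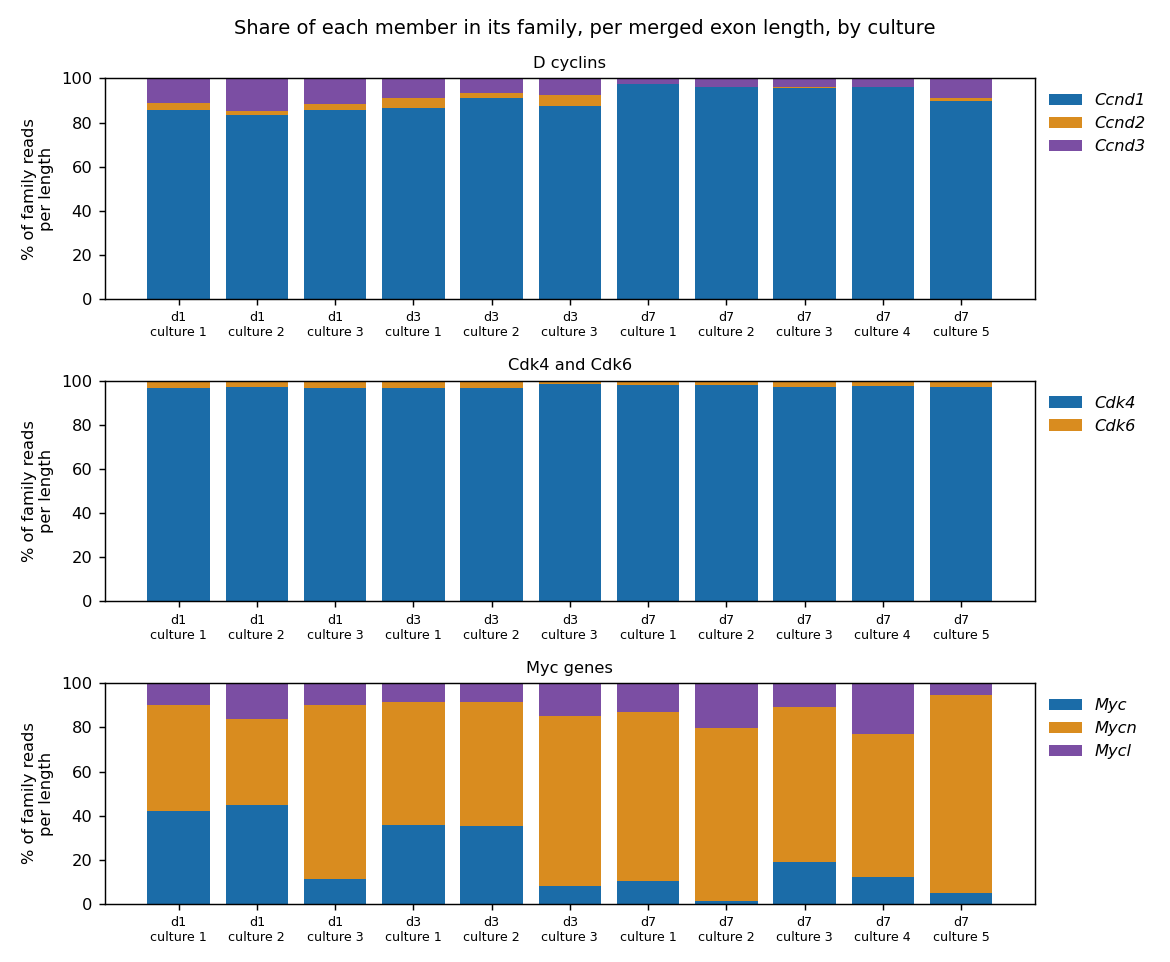
Share of each gene in the per-length reads of its family (y axis, percent) in each of the 11 cultures (x axis, d for day). Ccnd1 and Cdk4 fill most of each bar in every culture, and the Myc share is 42.1% and 44.8% in day 1 cultures 1 and 2, 11.3% in day 1 culture 3 and 1.13% to 18.9% in the day 7 cultures.

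Since these genes belong to cell cycle entry, the cells were split by cycling state. For this, each cell was thinned to 200000 reads, which 7, 6 and 3 of the kept cells of days 1, 3 and 7 did not reach. A cell was called cycling when reads were present for 3 or more of the genes Tpx2, Ccnb2, Birc5, Cdk1, Top2a and Mki67, which belong to late cell cycle phases, and 49.4% of the thinned cells met this. Near that cut, 66 cells had exactly 2 of the genes and 46 had exactly 3. None of the 8 genes was used for the split.

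Averaged over the 3 days, Ccnd1 was higher in cycling cells by 0.60 on the log2 scale (SE 0.09, adjusted p = 0.000789), and Cdk4 by 0.35 (SE 0.08, adjusted p = 0.0125). These 2 of the 8 genes were called, where 9.25% of 16654 tested genes were. Both were higher in the cycling cells of 10 of the 11 cultures, as were 6.85% of 16565 genes in 10 or more, although for Cdk4 1 of the 10 is day 7 culture 4 with 638.48 against 638.46 CPM. Both calls held in all 17 alternatives, with folds of 0.52 to 0.69 for Ccnd1 and 0.28 to 0.43 for Cdk4. This average was chosen after the data had been seen. The mean levels of Ccnd1 in cycling and non-cycling cells were 906.5 ± 171.06 and 477.8 ± 153.8 CPM on day 1, 1117 ± 132.6 and 759.3 ± 33.7 CPM on day 3, and 1108 ± 305.7 and 930.1 ± 381.04 CPM on day 7.

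By day, the Ccnd1 difference was 0.96 on day 1 (SE 0.17, adjusted p = 0.0135), 0.55 on day 3 (SE 0.17, adjusted p = 0.159) and 0.30 on day 7 (SE 0.13, adjusted p = 0.264). Ccnd1 was thus the 1 gene of the 8 called on day 1 (1.51% of all tested genes), and none was called on day 3 (1.75%) or day 7 (4.82%), although DESeq2 called 2 on day 1 (6.39%), 2 on day 3 (5.73%) and 1 on day 7 (12.2%). The day 1 call was lost without day 1 culture 2 (adjusted p = 0.0884) or culture 3 (0.112), and day 1 has only 33 cycling cells. The comparison of the classes on day 1 was also added after the data had been seen. On day 1 the median difference over all genes was -0.23, against 0.02 on day 3 and 0.06 on day 7. In day 7 culture 4, Ccnd1 had 1132 CPM in cycling and 1459 CPM in non-cycling cells, opposite to the other 10 cultures, and without it the day 7 difference was 0.49 (adjusted p = 0.0295).

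The Cdk4 difference was 0.46 on day 1 (SE 0.15, adjusted p = 0.186), 0.47 on day 3 (SE 0.15, adjusted p = 0.171) and 0.12 on day 7 (SE 0.11, adjusted p = 0.679). On day 7 it lay between -0.0084 and 0.24 with a culture left out, and in culture 1 Cdk4 was lower in cycling cells, at 598.7 against 695.7 CPM.

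Whether the difference itself changed was tested between days 7 and 3. The change was -0.24 for Ccnd1 (SE 0.21) and -0.34 for Cdk4 (SE 0.19), each with an adjusted p of 1. No gene at all was called in that test (0% of 16654), 3.10% had an unadjusted p under 0.05, and DESeq2 called 42 (0.252%), none of them among the 8.

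The other 6 genes showed no call between the classes. Ccnd2 was lower in cycling cells by a mean of -1.70 (SE 0.67, adjusted p = 0.161), and it was higher in the cycling cells of 3 of 11 cultures. With cells thinned to equal depth its adjusted p was 0.0321. On day 3 the non-cycling cells of cultures 1 and 3 had 229.7 and 212.95 CPM of Ccnd2 against 63.2 and 18.9 CPM in cycling cells, while culture 2 had 48.4 and 50.6 CPM. Myc gave -1.19 (SE 0.67, adjusted p = 0.354), Ccnd3 -0.14 (SE 0.10, 0.515), Cdk6 0.22 (SE 0.23, 0.690), Mycn 0.07 (SE 0.19, 0.923) and Mycl 0.98 (SE 0.70, 0.499).

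Mycl differed between the days in this respect by its values, not by a passed test. It was higher in the cycling cells of all 5 day 7 cultures, with 30.9, 66.5, 14.9, 22.6 and 12.9 CPM against 13.3, 0.119, 0, 15.7 and 3.73 CPM in non-cycling cells, but in 3 of the 6 cultures of days 1 and 3. Of 16565 genes, 8.67% were likewise higher in the cycling cells of all 5 day 7 cultures. The day 7 difference of Mycl was 2.98 (SE 1.16, adjusted p = 0.203), and DESeq2 put its adjusted p at 0.00273. Its change from day 3 was 2.76 (SE 1.72, adjusted p = 1).

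**Figure D4:**
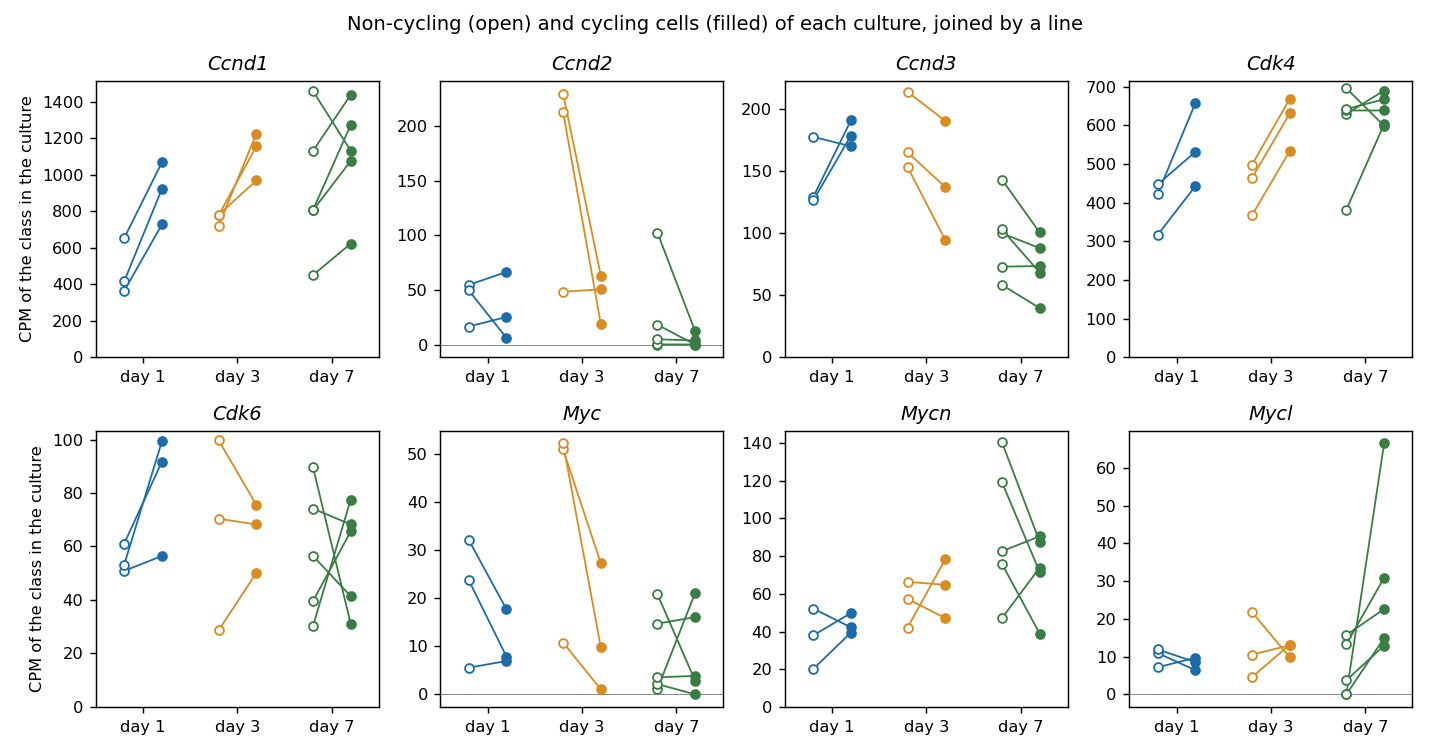
CPM of each gene (y axis, linear, from 0) in the non-cycling cells (open) and cycling cells (filled) of each culture, joined by a line, for days 1, 3 and 7 (x axis). The lines of Ccnd1 rise in 10 of 11 cultures, those of Mycl rise in all 5 cultures of day 7, and those of Ccnd2 fall steeply in 2 cultures of day 3.

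In non-cycling cells alone, the days were compared over the 10 cultures with at least 10 such cells, which leaves out day 7 culture 3 with 8. None of the 8 genes was called between day 7 and day 1 (1.52% of 15251 tested genes, 2497 with an unadjusted p under 0.05), between day 7 and day 3 (1.11%, 2155) or between day 3 and day 1 (0.00656%, with 4.603% at an unadjusted p under 0.05). DESeq2 called 3 (6.77% of all), 3 (5.56%) and 0 (0.557%) of them. The Mycn difference between day 7 and day 1 was 1.54 (SE 0.36, adjusted p = 0.0561) and that of Cdk4 was 0.75 (SE 0.19, adjusted p = 0.0759), each at least as large as over all cells. Ccnd3 was at -0.76 (SE 0.25, adjusted p = 0.145) between day 7 and day 1 and at -1.05 (SE 0.25, adjusted p = 0.0675) between day 7 and day 3. Ccnd2 was at -4.73 (SE 1.23, adjusted p = 0.0971) between day 7 and day 3, and at -6.53 (adjusted p = 0.0395) without day 7 culture 5. Myc was at -2.43 there (SE 0.94, adjusted p = 0.254), and at -4.03 (adjusted p = 0.0440) without day 7 culture 4.

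The genes differed in how many cells carried them. At 200000 reads a cell, a read of Ccnd1 was present in 96.7% ± 0.630 of the cells on day 1 (SD over cultures, n = 3), 100% on day 3 and 98.1% ± 2.94 on day 7, and Cdk4 in 97.4% ± 1.34, 99.1% ± 0.751 and 99.7% ± 0.573. Both were near the ceiling on every day. Ccnd3 was read in 90.7% ± 6.04, 85.8% ± 6.51 and 72.8% ± 3.99 of the cells, with all day 7 cultures, at 68% to 76.9%, below all others, and without thinning the 3 means were 90.2%, 87.9% and 77.4%. How often such a gap occurs over all genes was not computed. At equal depth the median genes per cell ran from 6207.5 to 6356.5 in day 1 cultures and 5981 to 6424.5 in day 3 cultures. On day 7 it ran from 5194 to 6384, lowest in cultures 5 and 2. The part of this in the shares of cells was not tested.

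Mycn went the other way, in 52.9% ± 11.9, 64.6% ± 2.45 and 72.6% ± 10.1 of the cells, or 56.9%, 65.9% and 76.7% without thinning. The day 7 range of 57.7% to 84.6% overlapped both earlier ranges. Cdk6 was read in 69.7% ± 1.38, 71.7% ± 8.35 and 72.5% ± 4.77 of the cells, and Mycl in 18.9% ± 4.29, 21.2% ± 2.12 and 22.1% ± 8.15. Unthinned means were 72.1%, 77.7% and 77.99% for Cdk6 and 19.6%, 22.3% and 25.9% for Mycl.

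Ccnd2 was read in 46 cells on day 1, 58 on day 3 and 17 on day 7, a mean of 28.8% ± 11.2, 25.6% ± 7.78 and 4.97% ± 4.90 over cultures (29.5%, 26.3% and 6.48% without thinning). Every day 7 culture, from 0% to 13.04%, was below every culture of the earlier days, and as for Ccnd3 the like share over all genes was not computed. In day 7 culture 1 none of 39 cells had a read, which allows a share of up to 7.69%. Myc was read in 41, 55 and 37 cells, a mean of 21.7% ± 7.50, 24.1% ± 9.07 and 12.1% ± 5.22 (23%, 23.5% and 13.3% without thinning).

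**Figure D5:**
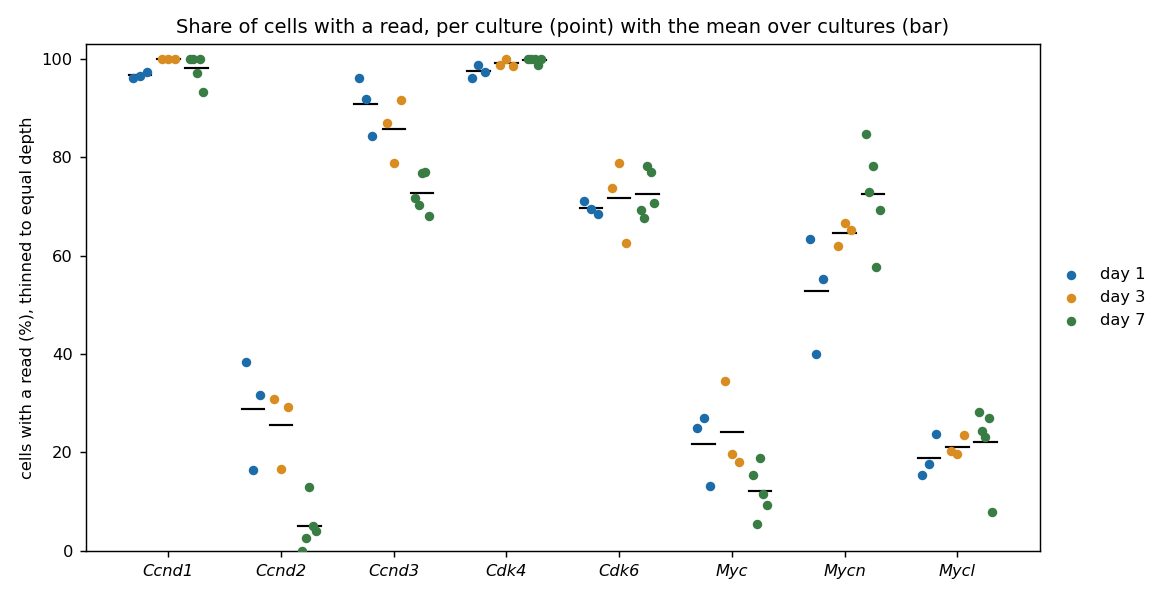
Percent of cells with a read (y axis) after thinning to 200000 reads, for each gene (x axis) on days 1, 3 and 7. Points are cultures and bars are means over them, with Ccnd2 at a mean of 28.8% on day 1 and 4.97% on day 7, and Mycn at 52.9% and 72.6%.

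Reads of the scarce genes were also concentrated. The 71 cells with the most unthinned reads of a gene, 1 in 10 of the kept cells, held 95.6% of the Ccnd2 reads. The share was 87.7% for Myc and 78.6% for Mycl. For Mycn the same share was 43.4%, for Cdk6 37.6%, for Ccnd3 32.3%, for Ccnd1 30.1% and for Cdk4 23.2%. The median cell had 423.6, 835.5 and 920.7 CPM of Ccnd1 on days 1, 3 and 7, where 1 cell in 10 was above 1078, 1732 and 2020 CPM. For Cdk4 the medians were 388.01, 486.4 and 631.8 CPM, and 1 cell in 10 was below 59.1, 178.5 and 313.2 CPM, so its low end moved by the largest factor. The median cell had no read of Ccnd2, Myc or Mycl on any day.

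In single cells thinned to equal depth, the leading gene was taken by reads per merged exon length. Mycn was the leading Myc gene in 39.4% of the cells on day 1, 50% on day 3 and 61.7% on day 7. Myc led in 34, 38 and 23 cells and Mycl in 16, 20 and 34, while 56, 53 and 57 cells had no read of the 3. Ccnd1 led the D-type cyclins in 92%, 95.5% and 94.97% of the cells. On day 7, Ccnd2 led in none and Ccnd3 in 11.

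Ccnd2 and Myc tended to be read in the same cells. On day 3, Ccnd2 was read in 56.4% of the 55 cells with a Myc read and in 16.2% of the others. The figures were 34.1% and 23.9% on day 1 and 18.9% and 3.83% on day 7. Within cultures, the share was higher among cells with a Myc read in 9 of 11, lower in day 7 culture 2, which had 1 cell with Ccnd2, and without a difference in day 7 culture 1, which had none. For Mycn the shares, over the pooled cells of a day, lay the other way on day 1 and differed little on days 3 and 7. Ccnd2 was read in 17.05% of the day 1 cells with Mycn and 35.6% of those without, in 25.2% and 27.8% on day 3, and in 5.21% and 6.90% on day 7. Cells of 1 culture are not replicates, and these shares carry no test.

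Likeness between cells is given for Ccnd1 and Cdk4 only, which nearly all cells carried. The gene most like Ccnd1 within cultures was Aldh1a3, a retinoic acid synthesising enzyme, with a mean Spearman rho of 0.51 over 11 cultures (0.24 to 0.70). Etv5, a transcription factor downstream of FGF signalling, followed with 0.43, and then the replication licensing genes Mcm5 (0.40) and Mcm3 (0.40), with Ranbp1 (0.40) between them. For Cdk4 the highest were Eno1, a glycolytic enzyme (0.46, with the near-identical Eno1b at 0.46), and Ran, a nuclear transport GTPase (0.44). Between Ccnd1 and Cdk4 the mean rho was 0.35 (0.02 to 0.49). The points are cells of 1 culture and share its handling, and their depth was not equalised, so these are descriptions. The search was made after the data had been seen.

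Over the 11 cultures, and among genes with a mean of at least 20 CPM, the 3 genes with the highest Pearson r of log2 CPM were Mdm1, Gtf3c5 and Uhrf1 for Ccnd1 (0.96, 0.95 and 0.94) and Hspb2, Ier2 and Dars for Cdk4 (0.97, 0.96 and 0.96). They were Ankrd10, Il33 and Thtpa for Mycn (0.93, 0.93 and 0.92) and Nup214, Mafg and Efhd2 for Myc (0.93, 0.85 and 0.84). Mycl had Arl2bp, Spsb3 and Pfkl (0.97, 0.93 and 0.89), and Cdk6 had Trip10, Jagn1 and Nubp2 (0.82, 0.80 and 0.79). Ccnd2 had Cst6, Prss35 and Lad1 (0.95, 0.95 and 0.94), and Ccnd3 had Lad1, Sgms1 and Pdpk1 (0.95, 0.94 and 0.94). Lad1, an epithelial anchoring filament gene, thus stood in both lists, and the r between Ccnd2 and Ccnd3 was 0.93. The cultures share days, so genes that move with time are alike here whatever else they do.

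The machinery around these genes was read from 6 lists. Of 17 genes of the Rb and E2F step, 2 rose between day 7 and day 1 and none fell, with a median of 0.73 against 0.00 over all genes, of which 7.11% were called in either direction. They were Ccna2, the cyclin of S phase (52.2 ± 30.5 to 259.4 ± 133.6 CPM, log2 fold 2.31, SE 0.49, adjusted p = 0.0164), and Tfdp1, the partner of E2F factors (77.4 ± 29.7 to 147.9 ± 35.5 CPM, 0.93, SE 0.26, adjusted p = 0.0481). None of the 9 genes of cyclin D turnover and CDK activation was called, with a median of 0.09. The smallest adjusted p-values there belonged to Fbxo4, a ubiquitin ligase subunit for cyclin D1 (-0.93, adjusted p = 0.186), and Cdk7, of the kinase complex that activates CDKs (0.56, adjusted p = 0.224).

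CDK inhibitors moved both ways. Of 6 tested of 7, 1 rose and 2 fell between day 7 and day 1, where 7.11% of all tested genes were called. Cdkn2c, whose product p18 binds Cdk4 and Cdk6, rose from 0.988 ± 0.247 to 18.1 ± 8.72 CPM (log2 fold 4.19, SE 0.59, adjusted p = 0.00266). Cdkn1c, whose product p57 inhibits several CDKs, fell by 2.13 on the log2 scale from 149.3 ± 48.5 to 34.05 ± 17.8 CPM (SE 0.37, adjusted p = 0.00707). Cdkn2b, the third, was at 12.8 ± 12.2 CPM on day 1 and 0.740 ± 0.564 CPM on day 7 (-4.11, SE 1.03, adjusted p = 0.0319), and it is named because it was called, after its values were seen.

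Around the Myc proteins, 1 of 11 partner genes rose between day 7 and day 1, near the 7.11% called over all genes. It was Mxd3, which competes with Myc for Max (1.60 ± 1.21 to 11.4 ± 3.10 CPM, log2 fold 2.84, SE 0.52, adjusted p = 0.00809). The next, Mlxipl, a glucose-responsive factor, was at 1.76 (adjusted p = 0.0526). Of 5 tested of 6 turnover genes, Skp2, a ubiquitin ligase subunit for p27 and Myc, rose from 17.4 ± 6.57 to 56.1 ± 15.6 CPM (1.69, SE 0.32, adjusted p = 0.00937), and Usp28, a deubiquitinase, was at 0.81 (adjusted p = 0.199). Among 21 growth genes linked to Myc none was called, although 17 had a positive fold and the median was 0.33. Eif4e, the cap-binding protein (0.54, adjusted p = 0.0961), and Dkc1, of the RNA pseudouridylation complex (0.43, adjusted p = 0.114), had the smallest adjusted p-values. Between day 3 and day 1 all 21 were at a positive fold with a median of 0.38 against 0.02 over all genes, and none was called.

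Between cycling and non-cycling cells on day 7, 4 of the 17 Rb and E2F genes were higher and none lower, where 4.82% of all tested genes were called, with a median of 1.36 against 0.06 over all genes. Ccna2 (4.69, SE 0.43, adjusted p = 0.000106) and Tfdp1 (0.95, SE 0.14, adjusted p = 0.00207) led, and E2f8 and Ccne2 were the other 2, named after their values were seen. The classes were made from cell cycle genes read in these same cells. Higher values of further cell cycle genes such as Ccna2 are thus built into the split and are no independent result. The growth genes gave 3 higher of 21, namely Nolc1 (0.87, adjusted p = 0.0118), Pa2g4 (0.75, adjusted p = 0.0175) and Odc1 (0.65, adjusted p = 0.0197, named after its values were seen), with 20 at a positive fold and a median of 0.38. Mlxipl (1.92, adjusted p = 0.0403) was the 1 called partner gene of 11. Mxd4, another Max partner, was at -3.10 (adjusted p = 0.0792) and Skp2 at 2.04 (adjusted p = 0.157).

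No CDK inhibitor and no gene of cyclin D turnover and CDK activation was called between the classes on day 7. Cdkn2d, whose product p19 binds Cdk4 and Cdk6, was at 1.85 (adjusted p = 0.0506) and Cdkn1b, whose product is p27, at -0.69 (adjusted p = 0.111). Gsk3b, the kinase that CHIR99021 inhibits, was at -0.31 (adjusted p = 0.196), and Cdc37, a chaperone partner of Cdk4, at 0.25 (adjusted p = 0.286).

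Shared reads limit some values. The share of values above 0 that were not whole numbers, which arises where reads are split between features, was 84.9% for Cdk4, 59.5% for Ccnd3, 42.8% for Ccnd2 and 26.4% for Ccnd1, and 0% for Cdk6 and the 3 Myc genes. Besides Tspan31 beside Cdk4, exon bases on the opposite strand are shared by LTO1 with Ccnd1, Gm43126 and 9330179D12Rik with Ccnd2, Bysl with Ccnd3 and Gm17590 with Cdk6, of which the first overlap is the longest (1100 bases). Without a stated strand setting, reads in these bases cannot be told apart by strand.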

How the data were processed

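Single cells of organoids were measured with SmartSeq2, and each of the 768 samples is 1 cell. The deposited tables hold unnormalised expected counts of the reads of each gene in every cell (10.6% of values above 0 are not whole), made by the authors with STAR 2.5.3a and RSEM 1.3.0 on mm10/GRCm38, per the submitters' processing notes. The annotation release and strand setting are not given in the sources used here. No column of another series was used. Of the identifiers, 93.2% matched GENCODE M21 with their version, from which positions and exon lengths were taken, and promoter sequences came from RefSeq (GRCm38.p6).

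After rounding in each cell, cells were kept with at least 50000 reads, at least 1500 genes and at most 20% mitochondrial reads, which left 711 (182, 228 and 301 on days 1, 3 and 7), of which 695 could be thinned to equal depth. Kept cells were summed per culture (day and replicate number) and the sums went into edgeR 4.0.16 under R 4.3.3 (quasi-likelihood F-test, TMM scaling, filterByExpr, day as the term, 11 cultures, Benjamini-Hochberg over all genes, call under 0.05). The class fit had culture as a block and a class effect for each day. CPM of a culture or class is scaled by TMM and SE is derived from the F statistic. Total reads alone scale the CPM of marker genes and of single cells, the mean CPM per cell and the limit for a count of 0. Alternatives used DESeq2 1.42.0 and limma 3.58.1 (log2 of CPM plus 1). Scripts were tested on simulated data. Python 3.11.15, numpy 2.4.6, pandas 2.3.3, scipy 1.17.1 and matplotlib 3.10.9 did the rest.

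The genes named are the 8 members, the 3 genes most like each over cultures (mean of at least 20 CPM, predicted genes passed over), and from each list the 2 with the smallest adjusted p for day 7 against day 1 and for the classes on day 7. Genes from the search over cells, the listed genes said to be named after their values were seen, and marker genes are named outside this rule. A result that this rule would name is not reported here. The members and lists were chosen with earlier results of these data known. Limits from a count of 0 (3 reads or cells) cover counting error only.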

Additional observations from a re-analysis of the deposited data

Results flagged for a closer look

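Among the 5 day 7 cultures, 32 sets of values of the 8 genes were checked for a culture far from the other 4 (its gap to the nearest over the whole range above Dixon's value for 5 samples), and 4 were marked. Chance marks about 1 in 20 such sets. The non-cycling cells of day 7 culture 3, of which there are 8, had 102.45 CPM of Ccnd2 against 0 to 18.2 CPM in the other 4 cultures. The same 8 cells had 382.1 CPM of Cdk4 against 629.7 to 695.7 CPM elsewhere. These cells are not in the comparison of days within non-cycling cells, but they are in that of the classes. Cdk4 was read in 98.7% of the cells of day 7 culture 4 and in 100% of those of the other 4, a distance of 1 cell. Mycl was read in 8% of the cells of day 7 culture 5 against 23.2% to 28.2% in the others.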

How the results depend on the processing

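Each comparison was refitted with 1 choice changed at a time. Of 1403 values of single genes under alternatives, 1284 kept direction and side of the threshold, 22 lost a call, 35 gained one and 62 changed sign; the cause of each was not tested. Between day 7 and day 1, 2 genes were called in the fit reported, 4 with DESeq2, 1 without the filter on low counts, 1 with stricter limits on cells, 1 with the file as a covariate and 0 in the second file alone, and 0 to 4 with a culture left out. Between day 7 and day 3 the count was 0, and 1 with DESeq2 and with limma on mean CPM per cell. In non-cycling cells the count between day 7 and day 1 was 0, but 3 with DESeq2 and 1 without the filter; between day 7 and day 3 it was 0, but 3 with DESeq2, 1 without the filter and 0 to 1 with a culture left out. For the classes on day 1 the count was 1, but 2 with DESeq2 or a cut of 4 genes, 0 with at least 10 cells of each class, and 0 to 1 with a culture left out. On day 3 it was 0, but 2 with DESeq2, 1 with at least 10 cells of each class and 0 to 1 with a culture left out. On day 7 it was 0, but 1 with DESeq2 and 0 to 1 with a culture left out.

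Sign changes were of values that were not called. Between day 3 and day 1, Ccnd3 was -0.051 with thinned cells and -0.040 in the second file alone, and Cdk6 was -0.024 there. Between day 7 and day 1, Cdk6 was -0.020 with thinned cells and Mycl -0.55 in the second file alone. Between day 7 and day 3, Ccnd1 was -0.31 with the file covariate and -0.86 in the second file alone, where Mycl was -0.96. Cdk6 was -0.0057 with DESeq2, -0.0058 with RLE scaling, -0.021 without the filter, -0.057 with thinned cells, -0.024 with all cells and -0.034 with stricter limits. In non-cycling cells with a read in none of the 6 genes, Ccnd1 was -0.34 between day 7 and day 1 and -0.80 between day 7 and day 3; it was -0.76 for the latter in the second file, and Cdk6 was -0.018 with DESeq2. Between classes, Ccnd2 on day 1 was 0.45 with at least 10 cells of each class, and Cdk4 on day 7 was -0.0073. With a cut of 4 genes Mycn was -0.10 and Mycl -0.37 on day 3, and the mean of the 3 days for Mycn was -0.034. On day 7, with a cut of 2 genes, Cdk6 was 0.20 and Myc 1.80, and Cdk6 was 0.021 without the filter.

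With a culture left out, ranges that crossed 0 were, between day 3 and day 1, -0.18 to 0.25 (Ccnd3), -0.10 to 0.40 (Cdk6) and -0.23 to 0.75 (Myc); between day 7 and day 1, -0.012 to 0.26 (Cdk6); and between day 7 and day 3, -0.050 to 0.27 (Ccnd1) and -0.25 to 0.25 (Cdk6). In non-cycling cells they were -0.80 to 0.15 (Mycl, day 7 against day 1), -0.11 to 0.46 (Ccnd1), -0.34 to 0.43 (Cdk6) and -1.08 to 0.16 (Mycl, each day 7 against day 3). Between classes they were -1.23 to 0.45 (Ccnd2, day 1), -0.22 to 0.43 (Cdk6), -0.14 to 0.48 (Mycn) and -0.38 to 0.91 (Mycl, each day 3), -0.0084 to 0.24 (Cdk4), -0.34 to 0.37 (Cdk6) and -1.59 to 0.23 (Myc, each day 7), and -0.030 to 0.20 (Mycn, mean of the 3 days).

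The replicate numbers are shared between days, but same-numbered cultures deviated together in no clear way (9 pairs, r from -0.01 to 0.06). With a replicate block, 2 genes were called between day 7 and day 1 (Ccnd1 and Mycn, with Cdk4 at an adjusted p of 0.0561). In non-cycling cells 3 were called between day 7 and day 1 and 2 between day 7 and day 3. Over all tested genes, the block gave fewer calls than the fit reported between day 7 and day 1. In non-cycling cells it gave more calls in both comparisons. Under the block, Cdk6 was -0.11 between day 7 and day 3 and, in non-cycling cells, -0.41 against day 1 and -0.51 against day 3. Scaling by ERCC spike-ins was not run, since 0.281% of the kept cells had such reads. Of 96 shares of cells under other depths or with at least 5 reads asked for, 69 moved by no more than the SD between cultures. The values of Ccnd2 and Myc are limited by the few cells that carry them.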
